A study of Oncorhynchus mykiss with 70 samples.

Results

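The acvr1c genes of rainbow trout (Oncorhynchus mykiss) encode activin receptor type 1C, also called ALK7, a type I receptor of the activin pathway. The code set held 2 of them, acvr1ca1 (LOC110501520) and acvr1ca2 (LOC110520051), among 49 pathway genes and among 10 type I receptors. They were taken by name. Both were described over all 23 tissues and 70 samples. The tissues were divided into Visceral Fat (3 samples), the 7 tissues whose titles contain the word muscle (22 samples) and the 15 remaining tissues (45 samples). Tongue was among the remaining tissues, as were Heart and Bulbus Arteriosus, which hold muscle too.

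RNA was counted with NanoString, an assay in which colour-barcoded probes bound to RNA are counted without amplification. The trout were untreated adults, 2 to 3 years of age, of clonal lines named Swanson and Oregon State University, raised in recirculating water. All samples were labelled male except those of Ovaries, and the labels do not say which line a sample came from. The design text calls the replicates biological, with 2 samples of Caudal Skeletal Muscle, 4 of Adductor Skeletal Muscle, 4 of Pelvic Fin Skeletal Muscle and 3 of each of the other 20 tissues. The p-values thus rest on the spread among these samples or, where tissue totals were the unit, among tissues. RNA extraction varied by tissue per the labels, so that tissue and extraction cannot be told apart. None of 16 listed markers of adipocytes, skeletal muscle, endothelium and blood was in the code set, so the tissue labels could not be checked against markers.

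In the activin pathway a dimeric ligand binds a type II receptor, which phosphorylates a type I receptor, which in turn phosphorylates Smad2 and Smad3. These join Smad4 and act on genes in the nucleus. In mammals ALK7 carries signals of Nodal, of activins that hold a beta B or beta C chain and of some growth differentiation factors, and it is known in adipose tissue, where it restrains the breakdown of stored fat. Salmonids went through a genome duplication of their own, which left many genes in paired copies.

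The authors' gene list places acvr1ca1 on chromosome 22 and acvr1ca2 on chromosome 3, and both on ancestral chromosome 3a. In the protein-coding gene order of RefSeq assembly USDA_OmykA_1.1, acvr1ca1 lies directly beside acvr1aa1 and acvr1ca2 directly beside acvr1aa2, members of another type I receptor group. The deposited files name no genome build, so no coordinates are given. Each copy was read by its own probe target of 100 bases, shown here because the comparison of the copies rests on the probes telling them apart. Capitals mark the longest run of bases that both targets share, of 6 bases, at positions 78 to 83 in acvr1ca1 and 14 to 19 in acvr1ca2, counted from the 5′ end:
acvr1ca1: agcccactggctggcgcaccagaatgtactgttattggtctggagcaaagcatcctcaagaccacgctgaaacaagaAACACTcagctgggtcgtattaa
acvr1ca2: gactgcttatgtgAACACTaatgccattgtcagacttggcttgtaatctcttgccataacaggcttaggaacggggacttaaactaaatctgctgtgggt
The targets were 50% and 44% G and C, within the range of 41% to 63% over 47 probes of the list (median 48%). A gapped alignment of the targets had 59 identical bases, where the duplicate pairs of the code set ran from 46 (mstnb) to 61 (inhab). The targets were compared only with each other. Whether either probe also binds RNA of the other copy was not tested.

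Total counts per sample ran from 52194 to 269554, and the mean of the 8 negative controls from 2.5 to 11.5 counts. The unit of level used here is the reference-scaled count, the count divided by a factor from the sample's actb, ef1a and tbp. The median factor was 0.459 in Visceral Fat, 0.349 in skeletal muscle and 1.76 in the other tissues, so this scale raises values in fat and muscle relative to the rest. Results are therefore also given as a share of the counts of the 49 pathway genes, which does not use the reference genes. A count is called above background where it exceeds the mean plus 2 SD of the sample's own negative controls. In bulk tissue, fewer cells of a type and less RNA per cell cannot be told apart.

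acvr1ca1 was high in Visceral Fat and in every skeletal muscle and low in nearly all other tissues. In Visceral Fat it had 268, 199 and 2978 counts, which are 585, 494 and 1317 reference-scaled counts. All 3 fat samples were above background, and Visceral Fat 3 stood above the other two. The mean, 798 ± 451 (SD, n = 3), was the highest of the 23 tissues. That rank rests on Visceral Fat 3, as the other fat samples lay below the means of Red Skeletal Muscle (694) and Extraocular Muscle (613). By median, Red Skeletal Muscle (797.5) was above Visceral Fat (584.5). Visceral Fat 3 also held the most counts of acvr1ca2 among the fat samples. acvr1ca2 had 21, 23 and 357 counts in Visceral Fat, or 45.8, 57.1 and 158 reference-scaled counts (86.9 ± 61.7, SD, n = 3), all above background. That mean ranked 6 among the 23 tissues, within the range of the muscles.

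**Figure D1:**
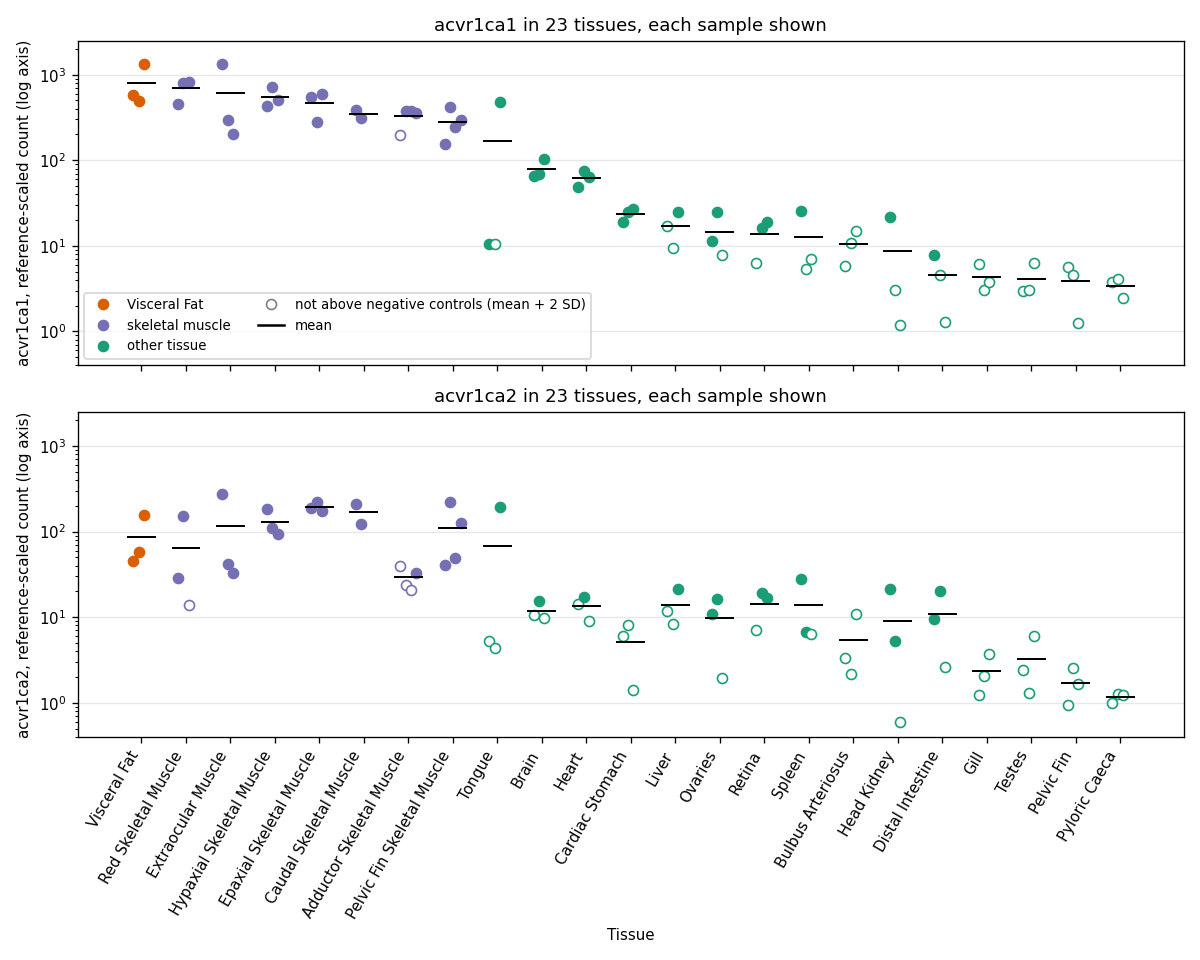
Reference-scaled counts (log axis) of acvr1ca1 in the upper panel and acvr1ca2 in the lower panel for each sample of 23 tissues, with Visceral Fat at the left, then the 7 skeletal muscles, then 15 other tissues; open points are counts not above background and bars are means. Fat and muscle points of acvr1ca1 lie at or above 154, and the other tissues lie at or below 103 except for Tongue 3 at 477.

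Among the skeletal muscles the mean of acvr1ca1 was highest in Red Skeletal Muscle, the slow oxidative muscle of the flank, with 460, 798 and 826 reference-scaled counts (694 ± 204, SD, n = 3). These came from 226, 73 and 59 counts. The factors of Red Skeletal Muscle 2 and Red Skeletal Muscle 3, 0.0915 and 0.0714, were the lowest of the 70 samples. As a share of pathway counts the mean was higher in Extraocular Muscle (10.4%) than in Red Skeletal Muscle (8.69%). Extraocular Muscle, which moves the eye, had 1336, 299 and 202 (613 ± 629, SD, n = 3), the widest spread of any muscle. Hypaxial Skeletal Muscle, below the horizontal septum of the trunk, had 431, 714 and 512 (552 ± 146, SD, n = 3). These 3 muscles overlapped each other and Visceral Fat. Epaxial Skeletal Muscle, above the septum, had 544, 283 and 588 (471 ± 165, SD, n = 3). Caudal Skeletal Muscle, with only 2 samples, had 388 and 311 (349 ± 55.1, SD, n = 2). Adductor Skeletal Muscle had 199, 381, 375 and 354 (327 ± 86.5, SD, n = 4). Adductor Skeletal Muscle 1, at 199, was the only muscle sample in which acvr1ca1 was not above background, with 20 counts. Pelvic Fin Skeletal Muscle had the lowest mean, from 154, 422, 246 and 298 (280 ± 112, SD, n = 4). Over the 22 muscle samples acvr1ca1 ran from 154 to 1336 with a median of 385, and 21 were above background.

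acvr1ca2 took another order among the muscles. Epaxial Skeletal Muscle was highest with 190, 222 and 172 reference-scaled counts (195 ± 25.1, SD, n = 3). Caudal Skeletal Muscle followed with 213 and 124 (168 ± 62.6, SD, n = 2) and Hypaxial Skeletal Muscle with 185, 109 and 94.5 (130 ± 48.5, SD, n = 3). The 3 trunk muscles overlapped each other, and none of their samples fell below 94.5. Extraocular Muscle had 274, 41.4 and 33.1 (116 ± 137, SD, n = 3), and Pelvic Fin Skeletal Muscle 41.0, 220, 49.2 and 125 (109 ± 83.2, SD, n = 4). Red Skeletal Muscle had 28.5, 153 and 14.0 (65.1 ± 76.4, SD, n = 3), the lowest of these from a single count. Its counts were 14, 14 and 1, against background limits of 11.4, 13.7 and 15.6, so all 3 values rest on counts near or below background. Adductor Skeletal Muscle had 39.7, 23.8, 20.9 and 33.0 (29.4 ± 8.65, SD, n = 4), and only 1 of its 4 samples was above background. Over the 22 muscle samples acvr1ca2 ran from 14.0 to 274 with a median of 102, and 18 were above background.

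With their samples set against this spread, neither copy differed detectably between the 7 muscles. edgeR's quasi-likelihood test gave F = 0.870 and adjusted p = 0.610 for acvr1ca1 and F = 1.85 and adjusted p = 0.239 for acvr1ca2. In that comparison 20.4% of the 49 genes were called, at an adjusted p below 0.05. For acvr1ca2 the call depended on how low counts were treated: limma on log2(scaled count + 10) gave F = 4.18 and adjusted p = 0.00713.

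Among the other tissues, Brain and Heart came next for acvr1ca1. Brain had 65.9, 68.7 and 103 reference-scaled counts (79.1 ± 20.6, SD, n = 3), from 93, 102 and 181 counts. Heart had 48.3, 75.5 and 63.3 (62.4 ± 13.6, SD, n = 3), from 17, 88 and 14 counts, and Cardiac Stomach had 18.9, 25.0 and 27.1 (23.7 ± 4.28, SD, n = 3). In these 3 tissues every sample was above background, and Brain and Heart overlapped each other. In order of the 23 means, Heart above Cardiac Stomach was the only pair of neighbours, of 22 pairs, whose samples did not overlap. Without Tongue 3, 2 pairs did not overlap, Pelvic Fin Skeletal Muscle above Brain and Heart above Cardiac Stomach. As a share of pathway counts Heart (1.12% to 1.67%) and Cardiac Stomach (0.893% to 1.27%) overlapped. Liver (17.1 ± 7.75), Ovaries (14.6 ± 8.88), Retina (13.7 ± 6.60), Spleen (12.7 ± 11.3), Head Kidney (8.68 ± 11.4) and Distal Intestine (4.56 ± 3.24, SD, n = 3 each) each had 1 or 2 samples above background. Bulbus Arteriosus, Gill, Testes, Pelvic Fin and Pyloric Caeca had none, with means between 10.6 and 3.44, so their order is that of counts at background. Over the 45 samples acvr1ca1 ran from 1.19 to 477 with a median of 9.51, and 19 were above background.

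acvr1ca2 stood near background in most of these tissues, with 14 of 45 samples above it and a median of 6.31 reference-scaled counts. Apart from Tongue the highest means were those of Retina (14.3 ± 6.41), Liver (13.7 ± 6.72), Spleen (13.7 ± 12.5) and Heart (13.5 ± 4.11, SD, n = 3 each). Brain, where acvr1ca1 was clearly counted, had 10.6, 15.5 and 9.66 (11.9 ± 3.12, SD, n = 3) of acvr1ca2, with 1 sample above background. In Cardiac Stomach all 3 samples were at background for acvr1ca2 and above it for acvr1ca1. The only neighbours in the order of acvr1ca2 whose samples did not overlap were Adductor Skeletal Muscle above Retina, with or without Tongue 3. Only 1 of 4 Adductor Skeletal Muscle samples and 2 of 3 Retina samples were above background. As a share of pathway counts the pair overlapped, with 0.346% to 0.783% in Adductor Skeletal Muscle and 0.221% to 0.612% in Retina. Over these 15 tissues both copies varied, with F = 10.2 and adjusted p = 4.92e-10 for acvr1ca1 and F = 4.81 and adjusted p = 1.82e-05 for acvr1ca2 by edgeR's quasi-likelihood test, in which 93.9% of the 49 genes were called. Without Tongue 3 the F of acvr1ca2 was 2.96 (adjusted p = 0.00274), and by limma on log2(scaled count + 10) with all samples its adjusted p was 0.391.

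Tongue held samples of very different level. acvr1ca1 had 10.4, 10.5 and 477 reference-scaled counts in Tongue 1, 2 and 3, from 24, 12 and 796 counts. acvr1ca2 had 5.21, 4.38 and 196, from 12, 5 and 327 counts. On the reference scale Tongue 1 and Tongue 2 lay among the low tissues and Tongue 3 among the muscles, for both copies. As a share of pathway counts Tongue 3 was above every muscle sample. It had 14.5% against at most 14.2% for acvr1ca1, and 5.96% against at most 2.90% for acvr1ca2. acvr1ca1 in Tongue 2, and acvr1ca2 in Tongue 1 and Tongue 2, were not above background. With such counts raised to the sample's background limit, Tongue 3 was at least 33.5-fold higher than the mean of Tongue 1 and Tongue 2 for acvr1ca1 and at least 14.97-fold higher for acvr1ca2. With no counts raised the ratios were 45.6 for acvr1ca1 and 40.9 for acvr1ca2. Over the other 43 pathway genes with at least 20 counts in 1 of the Tongue samples, also with no counts raised, the ratio had a median of 1.29. It ran from 0.310 to 4.31. The 5 highest were acvr1aa2 (4.31), bambia2 (3.83), inhbcb2 (3.80), smad7b2 (3.40) and fsta (2.66). Of these, bambia2 (12 and 8 counts) and inhbcb2 (10 and 8 counts) were not above background in Tongue 1 and Tongue 2. The 5 lowest were inhbcb1 (0.310), inhab1 (0.321), acvr1ba2 (0.362), acvr2bb (0.474) and acvr1ba1 (0.512). Of these, inhbcb1, inhab1 and acvr2bb were not above background in Tongue 3, with 6, 9 and 19 counts. With no muscle marker in the code set, the cell content of Tongue 3 was not tested, and results that rest on it are given with and without it.

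**Figure D2:**
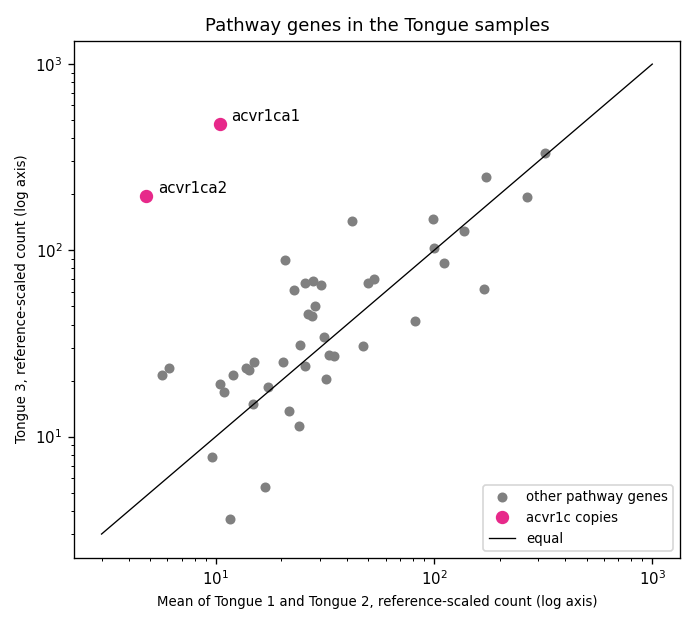
Reference-scaled counts of 45 pathway genes in Tongue 3 against the mean of Tongue 1 and Tongue 2, both on log axes, with the line of equal values. The acvr1c copies lie at 477 and 196 in Tongue 3, farthest above the line, and the other 43 genes between 0.310 and 4.31 times it.

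Visceral Fat stood far above the 15 other tissues for both copies. acvr1ca1 had 494 to 1317 reference-scaled counts in Visceral Fat, against 1.19 to 477 in the other tissues, so the groups did not overlap. acvr1ca2 had 45.8 to 158 in Visceral Fat, against 0.596 to 196 in the other tissues, where Tongue 3 alone passed the lowest fat sample. Relative to the mean of the 15 tissues, acvr1ca1 was 5.89 ± 0.36 (SE) higher on the log2 scale, or 59.2-fold, with adjusted p = 9.47e-21 by edgeR's quasi-likelihood test. acvr1ca2 was 3.52 ± 0.49 (SE) higher, or 11.5-fold, with adjusted p = 4.97e-08. Both p-values and SEs rest on the spread among samples and leave out the spread among the 15 tissues. Both sizes rest on low counts in the other tissues, where 19 of 45 samples were above background for acvr1ca1 and 14 of 45 for acvr1ca2. The difference ran from 3.50 to 6.82 for acvr1ca1 and from 1.11 to 4.82 for acvr1ca2. The low ends came from limma on log2(scaled count + 50) and the high ends from subtracting negative controls. The differences of 5.89 and 3.52 ranked 1 and 2 among the 49 differences, whose median was 0.34. In this comparison 16.3% of the 49 genes were called higher. Visceral Fat 3 weighed on both: without it the differences were 5.32 and 2.74, a change of over 1.5-fold in the linear ratio of acvr1ca2. Without Tongue 3 they were 6.15 and 3.78, and within the tissues of the largest set on a common scale of the authors' signal 5.67 and 3.32. With counts summed per tissue, where Visceral Fat is a single total, they were 5.24 and 3.33. With the counts of each tissue summed and sets of tissues on a common scale of the authors' signal as a block, acvr1ca2 no longer passed (3.07, adjusted p = 0.123).

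The 7 skeletal muscles were also above the 15 other tissues. The tissue means of acvr1ca1 ran from 280 to 694 in the muscles, against 3.44 to 166 in the other tissues, where Tongue was highest. Those of acvr1ca2 ran from 29.4 to 195 in the muscles, against 1.17 to 68.5. With summed counts per tissue as the unit, acvr1ca1 was 3.99 ± 0.65 (SE) higher in muscle on the log2 scale, or 15.9-fold, with adjusted p = 1.20e-05 by edgeR's quasi-likelihood test. acvr1ca2 was 3.12 ± 0.55 (SE) higher, or 8.68-fold, with adjusted p = 3.22e-05. The differences of 5.89 and 3.52 for Visceral Fat were fitted over samples instead. Fitted in that way, the muscle differences were 5.05 and 3.69, so the sizes given for fat and muscle are not like for like. More than the acvr1c genes rose here: 53.1% of the 49 genes were called higher and the median difference was 1.11, where acvr1ca1 ranked 2 and acvr1ca2 ranked 5 by size. Without Tongue 3 the differences in summed counts were 4.61 and 3.69, over 1.5-fold larger as linear ratios for acvr1ca1. With pathway genes as the scale instead, the median of all genes was −0.35 in place of 1.11. The acvr1c differences were then 2.68 (adjusted p = 0.00131) and 1.51 (adjusted p = 0.0285). Scaled to the positive controls, acvr1ca2 was not called (1.08, adjusted p = 0.118). Within the tissues of the largest shared scale in the authors' table they were 4.01 and 3.20, and within another set (Caudal Skeletal Muscle, Red Skeletal Muscle, Heart and Gill) 3.66 and 3.65.

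Visceral Fat and skeletal muscle overlapped for both copies. acvr1ca1 was 0.84 ± 0.55 (SE) higher in fat than in the mean of the 7 muscles on the log2 scale, with adjusted p = 0.178 by edgeR's quasi-likelihood test. For acvr1ca2 the difference was −0.17 ± 0.69 (SE), with adjusted p = 0.828. The panel as a whole lay lower in fat in this comparison, with a median difference of −1.33 and 49% of the 49 genes called, all lower in fat. Calls in this comparison rest on the spread among samples, not among tissues. Under pathway-gene scaling, where that median was −0.12, acvr1ca1 was 1.91 higher in fat (adjusted p = 0.000418) and acvr1ca2 1.07 higher (adjusted p = 0.176). The call on acvr1ca1 between fat and muscle thus changed with the scale, and the sign of the acvr1ca2 difference did too. Without Visceral Fat 3 the differences under reference scaling were 0.27 and −0.95.

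As a share of pathway counts, acvr1ca1 made up 16.6%, 15.7% and 33.1% in the Visceral Fat samples. In skeletal muscle the share ran from 2.62% to 14.2% with a median of 5.34%, and in the other tissues from 0.0630% to 14.5% with a median of 0.304%. Every fat sample was above every muscle sample and every other sample. How many other pathway genes separated fat from muscle by share was not tested, and on the reference scale fat and muscle overlapped for acvr1ca1. Tongue 3 held the 14.5%, and without it the highest of the other tissues was Brain 3 with 1.88%. acvr1ca2 made up 1.30% to 3.97% in fat, 0.187% to 2.90% in muscle and 0.0294% to 5.96% in the other tissues, or up to 1.22% without Tongue 3. For acvr1ca2 fat and muscle overlapped, and muscle overlapped the other tissues: 10 of 22 muscle samples exceeded the highest other sample without Tongue 3.

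Without Tongue 3, acvr1ca1 was above every sample of the other tissues in all 22 muscle samples, on the reference scale and as a share. It was the 1 gene of 49 for which this held, or 2.04%. On the reference scale acvr1ca2 was above the highest other sample, Spleen 1 at 28.1 from 127 counts, in 19 of 22 muscle samples. Among the 19 was Adductor Skeletal Muscle 1, at 39.7 from 4 counts that were not above background. Red Skeletal Muscle 1 passed narrowly, at 28.5 from 14 counts. All 3 samples of Visceral Fat were above every other sample for acvr1ca1 and acvr1ca2, which were the only 2 such genes, or 4.08% of 49. With Tongue 3 kept, no gene separated muscle from the other tissues, and acvr1ca1 alone separated fat from them, again 2.04%. In unscaled counts no gene separated muscle with or without Tongue 3, and acvr1ca1 alone separated fat, without Tongue 3.

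**Figure D3:**
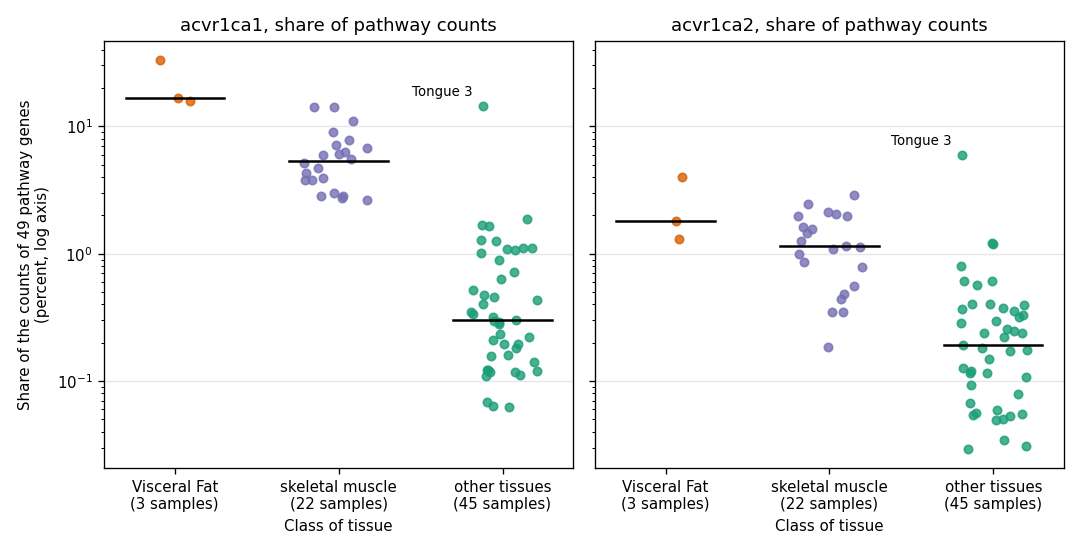
Share of the counts of 49 pathway genes held by acvr1ca1 (left) and acvr1ca2 (right) in each sample, in percent on a log axis, for Visceral Fat, skeletal muscle and the other tissues; bars are medians. The acvr1ca1 share is 15.7% to 33.1% in fat, 2.62% to 14.2% in muscle and at most 1.88% in the other tissues apart from Tongue 3.

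Among the type I receptors, the acvr1c genes together held 53.0% to 75.3% of the counts of all 10 in Visceral Fat, with a median of 58.3%. They held 16.8% to 51.4% in skeletal muscle (median 26.7%) and 0.228% to 53.9% in the other tissues (median 2.96%). The highest of the other tissues was again Tongue 3, and without it Head Kidney 1 was highest with 11.8%. Every fat sample was above every muscle sample, but whether other pathway genes separated fat from muscle in such shares was not tested. Probes may differ in efficiency, so these shares compare samples and do not rank the receptors.

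The copies were not counted in a fixed ratio. In Visceral Fat there were 12.8, 8.65 and 8.34 counts of acvr1ca1 for each count of acvr1ca2. In skeletal muscle the ratio ran from 1.28 in Epaxial Skeletal Muscle 2 to 59 in Red Skeletal Muscle 3, where acvr1ca2 had 1 count, with a median of 5. In the other tissues it ran from 0.227 to 19 with a median of 1.75. Many of those samples were at background for 1 or both copies. Where both copies were above background the ratio was 8.34 to 12.8 in 3 of 3 fat samples, 1.28 to 16.1 (median 4.33) in 18 of 22 muscle samples and 0.821 to 4.43 (median 1.12) in 11 of 45 other samples. By summed counts per tissue, Red Skeletal Muscle and Adductor Skeletal Muscle each had a ratio of 12.3, Visceral Fat 8.59, Brain 6.84, Extraocular Muscle 5.26 and Hypaxial Skeletal Muscle 4.53. Pelvic Fin Skeletal Muscle had 2.81, Epaxial Skeletal Muscle 2.78 and Caudal Skeletal Muscle 2.00. Retina, Head Kidney and Spleen lay between 0.914 and 0.955, and Distal Intestine had 0.462. Adductor Skeletal Muscle, Brain, Head Kidney, Spleen and Distal Intestine each had only 1 sample with both copies above background. Red Skeletal Muscle and Retina each had 2. In Tongue only Tongue 3, with a ratio of 2.43, had both copies above background.

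**Figure D4:**
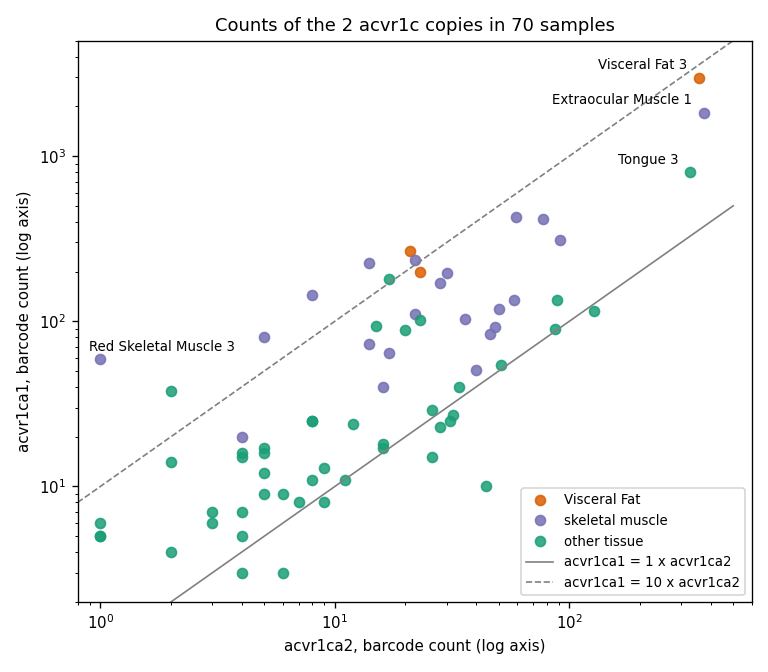
Barcode counts of acvr1ca1 against acvr1ca2 in 70 samples, both on log axes, with lines at ratios of 1 and 10. The Visceral Fat samples lie near the line of 10 (8.34 to 12.8), the muscles mostly between the lines (median 5) and the other tissues nearer to the line of 1 (median 1.75).

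The ratio was tested over the 21 duplicate pairs of the code set, with each sample keeping its own level, so that no scaling between samples enters. The unit was the sample, so the SE and p-values leave out the spread among tissues of a class. By summed counts per tissue the ratio ran from 2.00 to 12.3 in the muscles and from 0.462 to 6.84 in the other tissues. It varied among the 23 tissues (F = 10.7, adjusted p = 5.35e-12 by edgeR's quasi-likelihood test), as did 81% of the pairs. The log2 ratio was 1.45 ± 0.18 (SE) higher in the 7 muscles than in the 15 other tissues (adjusted p = 1.03e-09, with 42.9% of pairs called, 14.3% higher and 28.6% lower). It was 2.45 ± 0.36 (SE) higher in Visceral Fat than in the 15 other tissues (adjusted p = 1.29e-07), where acvr1c was the 1 pair called, or 4.76%. Between Visceral Fat and the 7 muscles it was 1.01 ± 0.36 (SE) higher in fat (adjusted p = 0.0355, with 19% of pairs called). This last call was lost without Caudal Skeletal Muscle 1, Red Skeletal Muscle 2 or any 1 of the fat samples, with differences of 0.831 to 1.14 over all single samples left out. It was also lost by limma on the log2 ratio of unscaled counts with 1 added to each copy (1.03, adjusted p = 0.110). Without Tongue 3 the ratio differences were 1.01 (fat minus muscle), 2.46 (fat minus other) and 1.45 (muscle minus other). Subtracting the mean of the negative controls ended all 3 calls in the edgeR test and left differences of 0.843 (fat minus muscle), 2.02 (fat minus other) and 1.18 (muscle minus other). After that subtraction acvr1ca2 was 0 in 22 samples and in every sample of 2 tissues. limma on the subtracted counts with 10 added kept all 3 calls, with differences between 1.15 and 2.65.

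The other type I receptors did not share the pattern of acvr1c in fat. Of 8 acvr1a and acvr1b genes none was called higher in Visceral Fat than in the other tissues, beside 16.3% of the panel. acvr1ba1, an ALK4 gene, was lower by 1.54 ± 0.55 (SE) on the log2 scale with adjusted p = 0.0381 by edgeR's quasi-likelihood test. That p-value rests on the spread among samples, and 2.04% of the panel was called lower. The median difference of the 8 was −0.18, beside 0.34 over all genes. With pathway genes as the scale 4 of the 8 were called lower in fat, and with tbp alone or actb alone none was. In skeletal muscle against the other tissues, where 53.1% of the panel was called higher, 3 of the 8 were called higher, acvr1aa1, acvr1ab1 and acvr1ab2, genes of the ALK2 group. Their differences were 1.82, 1.25 and 1.45, and the median of the 8 was 0.77 beside 1.11 over all genes. With pathway genes as the scale none of the 8 was called higher and 3 were called lower, with a median of −0.80 beside −0.35 over all genes. The gene next to acvr1ca1 on its chromosome, acvr1aa1, had a difference of 0.48 ± 0.41 (SE) in fat (adjusted p = 0.551), and the gene next to acvr1ca2, acvr1aa2, one of 0.14 ± 0.41 (SE, adjusted p = 0.868). Set against the 7 muscles, all 8 were called lower in Visceral Fat, with differences of −1.25 to −1.69 beside the panel's median of −1.33 and 49% of the panel called lower. These calls rest on the spread among samples, not among tissues. With pathway genes, TMM, DESeq2 size factors, positive controls or tbp alone as the scale, none of the 8 was called in that comparison.

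**Figure D5:**
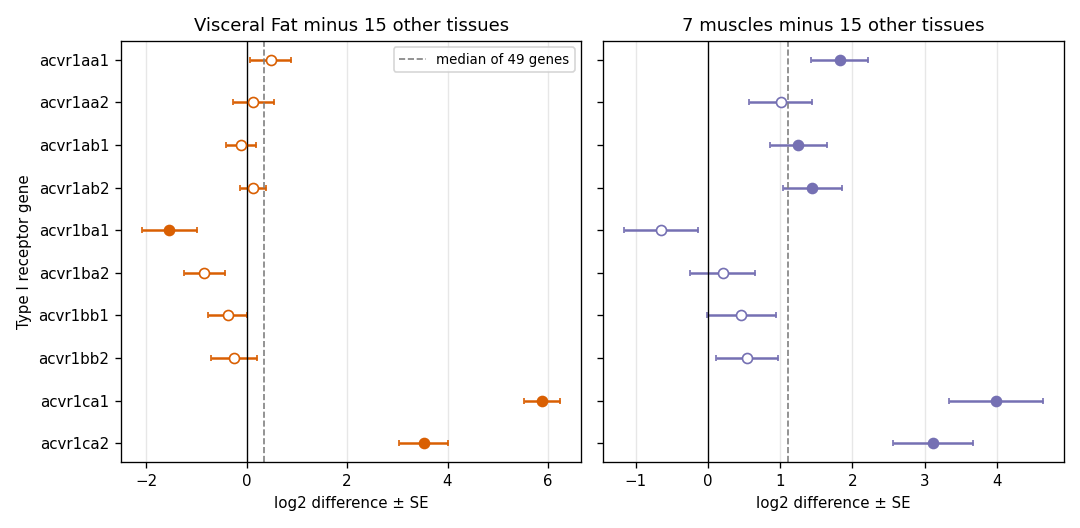
Log2 difference ± SE of the 10 type I receptor genes, for Visceral Fat minus 15 other tissues (left) and for 7 muscles minus 15 other tissues (right); filled points have an adjusted p below 0.05 and the dashed line is the median of 49 genes. The acvr1c genes lie at 5.89 and 3.52 in fat and at 3.99 and 3.12 in muscle, and the other 8 between −1.54 and 0.48 in fat and between −0.65 and 1.82 in muscle. Fat was fitted over samples and muscle over summed counts per tissue, so sizes in the panels are not like for like.

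The genes that act with ALK7 are given by lists of symbols. Of 7 type II receptors, which bind the ligand first, 1 was called higher in Visceral Fat than in the 15 other tissues (acvr2ba2), beside 16.3% of the panel, and the 4 acvr2a genes were called higher in skeletal muscle. Of 8 genes for chains whose ligands bind ALK7 complexes in mammals (inhbb, inhbc and gdf11 genes) none was called in fat, and inhbbb2, inhbcb1 and inhbcb2 were called higher in muscle. Their medians were 0.16 in fat and 0.66 in muscle, below the panel's 0.34 and 1.11. Of 9 other ligand genes, inhbab1 and mstnb2 were called higher in fat, and 5 in muscle, 3 of them myostatin genes, which encode a restrainer of muscle growth. The 3 receptor-regulated Smads, which the receptor phosphorylates, were not called in fat and were all called higher in muscle. Of 7 common Smads, smad4bb1 and smad4bb2 were called higher in fat and smad4aa1, smad4aa2 and smad4ba2 in muscle. Of 2 inhibitory Smads, smad7b2 was called higher in fat and none in muscle. The 3 antagonists and decoys, fsta, bambia1 and bambia2, were not called in fat and were all called higher in muscle, with a median of 2.21. The muscle counts stand against 53.1% called over the panel, and the fat counts against 16.3% called higher. Both moved with the scaling: with pathway genes 7 genes of the panel were called higher and 14 lower in muscle, and 3 higher and 5 lower in fat.

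The profile over tissues most like that of each copy was that of the other copy. Over 23 tissue means of log2(scaled count + 10), Pearson's r between acvr1ca1 and acvr1ca2 was 0.90, beside medians of 0.61 and 0.60 of the r of each copy with the panel. After it came inhbab2 (0.85), a gene of the activin beta A chain, and the myostatin gene mstnb2 (0.84) for acvr1ca1, and the follistatin gene fsta (0.87) and smad4aa1 (0.87) for acvr1ca2. All genes of a sample share its reference factor, and whether this raised r was not tested. Pathway-gene scaling takes its factor from the panel's own genes, which by itself lowers the r among them. A lower r under that scaling thus cannot show an effect of the reference factor. Under pathway-gene scaling the r of the copies was 0.81 and the medians were −0.13 and −0.16. The next genes for acvr1ca1 were then mstna1 (0.66), inhbab2 (0.57) and mstnb2 (0.54). For acvr1ca2, smad4aa1 and mstna1 each had 0.60 and fsta 0.58. Without Tongue 3 the r of the copies was 0.90, and inhbab2 (0.86) and fsta (0.86) followed smad4aa1 (0.87) for acvr1ca2. Within tissues, the deviations of single samples from their tissue mean had r = 0.79 between the copies over 70 samples and 0.67 without Tongue 3, where each pair of values came from 1 library.

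In the authors' deposited table of normalized signal, with 1 value per tissue, acvr1ca1 was highest in Visceral Fat (1304.22), followed by Hypaxial Skeletal Muscle (971.61) and Epaxial Skeletal Muscle (807.73). acvr1ca2 was highest in Epaxial Skeletal Muscle (348.34) and Hypaxial Skeletal Muscle (223.32), and Visceral Fat ranked 3 (134.04). For acvr1ca1, Red Skeletal Muscle ranked 6 in the authors' deposited table (492.99) and 2 in the means above. Tongue ranked 10 for acvr1ca1 in the authors' deposited table with 67.25, below Brain with 139.49. Except for Adductor Skeletal Muscle, where 3 of 47 genes came within 1%, the table matches for most genes geometric means of reference-scaled counts times a constant. The constant was 1925 for Red Skeletal Muscle, Caudal Skeletal Muscle, Heart and Gill against 4721 for 13 tissues including Visceral Fat. Pelvic Fin Skeletal Muscle matched for 45 of 47 genes with a constant of 3773, which no other tissue shared.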

How the data were processed

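Whole-number barcode counts per probe and sample, with no normalization or background correction visible in the values, were deposited by the authors for 49 pathway genes, 3 reference genes, 6 positive and 8 negative controls. The authors also deposited a table of normalized signal with 1 value per gene and tissue (samples pooled). It was used only for ranks and to find tissues that share a scale (13, 4 and 4 tissues, with 2 in none of these sets). The software and genome build are not given in the sources used here. Identities, chromosomes and targets came from the authors' gene and probe lists, while a sheet of older gene names was left aside. Samples of embryos, fry, parr and juveniles named in the design text were not analysed here. Every per-sample column was used.

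Counts were tested with edgeR 4.0.16 (quasi-likelihood, two-sided) in R 4.3.3, over all 49 genes and 70 samples with a coefficient per tissue and an offset from actb, ef1a and tbp (geometric mean). Skeletal muscle against other tissues was tested on counts summed per tissue (7 against 15, Visceral Fat as its own class). The copy ratio was tested as copy by tissue with sample as a term, over 21 duplicate pairs. P-values were adjusted by Benjamini-Hochberg over genes or pairs, with a threshold of 0.05. The SE is the difference divided by the square root of F. limma 3.58.1 and DESeq2 1.42.0 were alternatives, beside other scalings, background subtraction, filters, a block for the replicate number and each sample left out. Descriptions and figures were made in Python 3.11.15 with matplotlib 3.10.9, scipy 1.17.1, pandas 2.3.3 and numpy 2.4.6. The tests were checked on simulated counts, in 10 runs with 8-fold changes. The test of muscle against other tissues called all 120 changed genes and 9 of 370 unchanged genes. With 5 background counts added it called 34 of the 370. The fat test called 119 of 120 changed and 0 of 370 unchanged genes. The ratio test called all 50 changed and 1 of 160 unchanged pairs. The simulations for fat and for the ratio held no spread among tissues of a class and no added background.

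Total counts were 52194 to 269554 per sample, and with 2 to 4 samples per tissue and negative controls of 2.5 to 11.5 counts, low values have little precision. No replicates were copies of each other (lowest chi-squared per degree of freedom 2.40 over 73 pairs).

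The genes described and the lists were chosen with earlier results of these data known. Named genes were both acvr1c copies, the 3 genes most like each copy, the 5 highest and 5 lowest in Tongue 3, and those called within the lists.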

Additional observations from a re-analysis of the deposited data

Results flagged for a closer look

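Adductor Skeletal Muscle 1 lay far below the other samples of its tissue for acvr1ca1, with 199 reference-scaled counts, where the nearest other sample had 354 and the highest 381. Its value rests on 20 counts that were not above background. In all 14 groups (tissues with 4 samples, and the 7 muscle means) were compared in this way for levels, shares and the copy ratio, and chance marks about 1 group in 20.

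The ratio of acvr1ca1 to acvr1ca2 differed between groups of tissues by a test of the difference itself, taken over samples and not over tissues. On the log2 scale it was 1.01 higher in Visceral Fat than in the 7 muscles, 2.45 higher in Visceral Fat than in the 15 other tissues and 1.45 higher in the 7 muscles than in the 15 other tissues. The call between Visceral Fat and the muscles was lost without any 1 of the 3 fat samples and after subtracting the negative controls (0.843, adjusted p = 0.643), a subtraction that ended the other two calls as well.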

How the results depend on the processing

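The higher levels of both copies in Visceral Fat than in the 15 other tissues, and of acvr1ca1 in skeletal muscle than in the 15 other tissues, kept their direction and their call under every alternative run, with 1 exception. With sets of tissues on a common scale in the authors' table as a block on tissue totals, chosen after seeing the data, acvr1ca2 in fat minus other tissues was 3.07 (adjusted p = 0.123). For acvr1ca1 the differences ran from 3.50 to 6.82 in fat minus other tissues and from 2.36 to 5.05 in muscle minus other tissues, for acvr1ca2 in fat minus other tissues from 1.11 to 4.82, and leaving out single samples gave 5.32 to 6.15 and 3.63 to 4.61 for acvr1ca1. acvr1ca2 in muscle minus other tissues was not called when scaled to the positive controls (1.08, adjusted p = 0.118). acvr1ca1 in fat minus muscle, not called under reference scaling, was called with pathway genes (1.91), TMM (2.04), DESeq2 size factors (1.98), positive controls (2.50) and tbp alone (1.65). acvr1ca2 in fat minus muscle was called in no setting and ran from −0.69 to 1.64, or from −0.95 to 0.13 with single samples left out. By limma, the variation of acvr1ca2 among 7 muscles was called with pseudocounts of 10 (F = 4.18) and 50 (F = 4.96), and that among the 15 other tissues was not (F = 1.13 and 0.572). The causes were not tested.

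The copy ratio in fat minus muscle was not called by limma with a pseudocount of 1 (1.03), after subtracting negative controls (0.843) or with the replicate number as a block (0.93, adjusted p = 0.0546), and single samples left out gave 0.831 to 1.14. Subtraction also ended the ratio calls in fat minus other tissues (2.02) and muscle minus other tissues (1.18). With that block 2 of 21 pairs were called in fat minus muscle, against 4 without it, and no other call on the acvr1c genes changed. Deviations from tissue means of same-numbered samples had a mean r of 0.017 over 738 pairs, of which 290 were over 0.1. For samples of different number the mean r was −0.0079 over 1604 pairs, of which 534 were over 0.1. With 2 to 4 samples per tissue these values cannot show whether samples of 1 number came from 1 fish. Muscle minus other tissues was fitted over samples for the block, a fit added after seeing the data, with differences of 5.05 and 3.64 and a ratio difference of 1.49.

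The number of genes called moved with the settings: 9 in fat minus other tissues became 1 to 16, 26 in muscle minus other tissues became 10 to 48, 24 in fat minus muscle became 0 to 28, and 10 among the muscles became 5 to 20. Of the 21 pairs, 17 that varied became 11 to 20, 4 in fat minus muscle 0 to 4, 1 in fat minus other tissues 0 to 3, and 9 in muscle minus other tissues 2 to 11. Higher against lower calls were 8 to 1 in fat minus other tissues and 3 to 5 with pathway genes, 26 to 0 in muscle minus other tissues and 7 to 14 with pathway genes, 8 to 7 with TMM, 7 to 3 with DESeq2 size factors and 3 to 21 with positive controls, and 0 to 24 in fat minus muscle and 3 to 4 with pathway genes, 4 to 4 with TMM and 3 to 0 with positive controls. Counts near the negative controls limit the order of the low tissues and the ratios there.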
